A study of Mus musculus with 4 samples.

Results

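The neurexophilins are the 4 genes Nxph1, Nxph2, Nxph3 and Nxph4, found by symbol among the 31053 genes of a matrix of nuclear transcript counts from mouse superior colliculus, a midbrain structure that receives visual input. They encode small secreted glycoproteins that bind the extracellular part of alpha-neurexins, the long forms of the neurexins, which are adhesion molecules of the presynaptic membrane. A neurexophilin thus acts as a ligand held at the synapse by its receptor, and it shares that receptor with neuroligins, cerebellins, dystroglycan and other partners. In the forebrain Nxph1 is known from inhibitory neurons, and Nxph3 and Nxph4 from deep layers of the neocortex.

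Nuclei came from C57BL/6J mice, for which the labels name no genetic change or treatment, of 4 ages: embryonic day 19, called E19, and the postnatal days 4, 8 and 21, called P4, P8 and P21. Values given in runs of 4 follow that order. Tissue of several animals was pooled for each stage, and each stage was 1 library, so no test between stages was possible, and the intervals given here are 95% intervals for counting error only. The 4 libraries held 2249 to 2585 nuclei and 19277512 to 31325079 unique molecular identifiers (UMIs, each standing for 1 captured transcript), with a median of 6828 UMIs per nucleus at E19 and 11745 at P21. The authors' annotation placed the 9724 nuclei in 9 classes and 35 subtypes, of which 13 are excitatory neurons (EN1 to EN13) and 12 inhibitory neurons (IN1 to IN12). These groups were named from clusters of the same nuclei, so every difference between them is a description.

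The libraries differ in ways other than age. Nuclei with a UMI of Xist, a transcript of female cells, made up 0.967% of the E19 library and 40.7% to 68.1% of the others, so the sex of the pooled animals and the E19 stage cannot be told apart. In addition, 9 cell barcodes occurred in 2 libraries each. The class labels were checked against their markers, which did not bear out every label. Summed over Gad1, Gad2 and Slc32a1, genes of GABA synthesis and loading, the level was 680 to 950 counts per 1000000 UMIs (CPM) in inhibitory neurons and 34.6 to 58.6 CPM in excitatory neurons. Summed over the glutamate transporters Slc17a6 and Slc17a7, it was 179 to 286 CPM in excitatory neurons and 8.49 to 46.3 CPM in inhibitory neurons. Vascular leptomeningeal cells had 3310, 1962, 1776 and 1268 CPM of their markers Col1a1, Col1a2 and Dcn. Their sum of the astrocyte genes Aqp4, Gfap, Slc1a3 and Aldh1l1 was 2169, 2128, 2416 and 1132 CPM. Epithelial cells had 0 to 7.39 CPM of their markers Foxj1, Epcam and Krt8, and 638 to 1083 CPM of the leptomeningeal ones.

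On the mm10 build, Nxph1 (ENSMUSG00000046178) spans chr6:8948431-9249032 on the plus strand and Nxph2 (ENSMUSG00000069132) spans chr2:23321246-23401973 on the plus strand. Nxph3 (ENSMUSG00000046719) lies at chr11:95509845-95514570 and Nxph4 (ENSMUSG00000040258) at chr10:127525473-127534559, both on the minus strand. The genes therefore differ widely in length, from 4.73 kb for Nxph3 and 9.09 kb for Nxph4 to 80.7 kb for Nxph2 and 301 kb for Nxph1. This matters in nuclear RNA because reads within introns were counted. An unnamed locus, Gm35736, overlaps Nxph1 on the same strand and has no row of its own in the matrix. The other 3 members overlap no annotated gene.

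The coding sequences of the 4 genes are related. The most alike pair was Nxph1 and Nxph2, with 63.7% identical bases over 772 aligned positions, and the least alike was Nxph2 and Nxph4, with 52.5%. No pair of transcripts shared an identical run longer than 24 bases. The sequences below are the 90-base coding stretch, free of gaps in the alignment, with the most bases shared by all 4 genes. Each lies in 1 exon of the GENCODE M21 transcript, near the end of the coding sequence, and capitals mark the 51 bases shared by all 4 genes.
Nxph1: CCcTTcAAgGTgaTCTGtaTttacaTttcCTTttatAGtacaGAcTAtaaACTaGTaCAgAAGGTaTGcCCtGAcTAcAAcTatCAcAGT
Nxph2: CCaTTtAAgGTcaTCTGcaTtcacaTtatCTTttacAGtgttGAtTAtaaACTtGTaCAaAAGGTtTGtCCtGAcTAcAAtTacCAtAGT
Nxph3: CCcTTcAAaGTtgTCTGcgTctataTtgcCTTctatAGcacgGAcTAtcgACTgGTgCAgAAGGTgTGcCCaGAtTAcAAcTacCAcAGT
Nxph4: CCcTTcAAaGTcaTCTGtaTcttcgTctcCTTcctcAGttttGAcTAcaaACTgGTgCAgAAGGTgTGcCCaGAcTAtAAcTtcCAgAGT

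These stretches are read 5′ to 3′ along the coding strand and lie on mm10 at chr6:9247730-9247819 (plus strand), chr2:23400307-23400396 (plus), chr11:95510855-95510944 (minus) and chr10:127526127-127526216 (minus). Within them Nxph1 shares 71 bases with Nxph2, 71 with Nxph3 and 68 with Nxph4. Nxph2 and Nxph3 are the pair with the fewest bases in common there, 61.

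One member gave nearly all of the signal. Nxph1 had 76879 UMIs in 5623 nuclei (57.8% of all), with up to 240 in a single nucleus. Nxph4 had 374 UMIs in 314 nuclei, Nxph3 had 241 in 223 nuclei, and Nxph2 had 187 in 147 nuclei. Statements on the last 3 genes therefore rest on few transcripts, most often 1 per nucleus.

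Nxph1 was higher in inhibitory neurons as a class than in excitatory neurons. Its level in inhibitory neurons was 2240, 1741, 1722 and 1058 CPM, against 301, 367, 244 and 307 CPM in excitatory neurons. The lowest inhibitory value was thus above the highest excitatory one, and the levels of the classes did not overlap. Inhibitory neurons without IN1, IN2 and IN9 had 389, 420, 458 and 408 CPM. These values were above the excitatory one in each library, but much nearer to it than to that of the whole inhibitory class. The log2 ratio of inhibitory to excitatory neurons, with 5 CPM added to both values, was 2.87 (2.82 to 2.93), 2.23 (2.18 to 2.28), 2.79 (2.74 to 2.85) and 1.77 (1.72 to 1.82) in the 4 libraries, and averaged 2.42. The ratio passed a log2 value of 1 in all 4 libraries. Of the 9289 genes with a mean of at least 10 CPM, 42 did so (0.452%), and Nxph1 was the 1 member abundant enough to be counted among those genes. Another 42 of them (0.452%) passed in the opposite direction, with no neurexophilin among them.

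**Figure D1:**
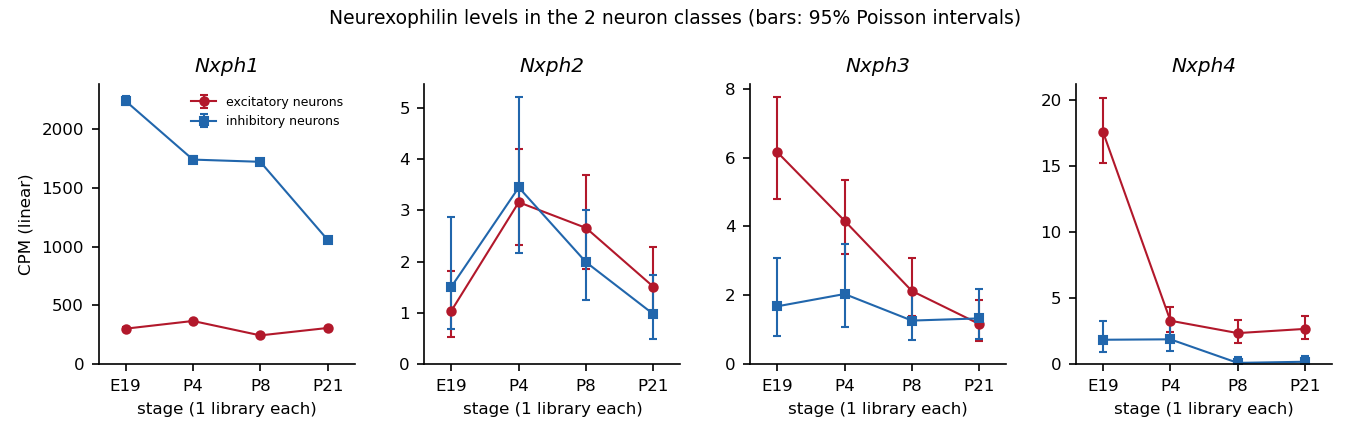
Level of each neurexophilin in CPM (vertical axis, linear, a different range in each panel) against stage (horizontal axis, 1 library each) in excitatory neurons (red circles) and inhibitory neurons (blue squares), with 95% Poisson intervals. Nxph1 was higher in inhibitory neurons at each stage, 2240 against 301 CPM at E19, while excitatory Nxph4 stood at 17.6 CPM at E19 and no higher than 3.29 CPM afterwards.

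Within the inhibitory class, 2 subtypes stood above all others. IN9 had 8858, 9599, 8439 and 4212 CPM, from 22 to 74 nuclei per library. IN2 had 5796, 4554, 4525 and 2835 CPM, from 87 to 165 nuclei. In each of the 4 libraries IN9 was the higher of them, but the ranges of the pair over libraries overlapped. The lowest value of IN2 stayed above the highest value of IN1, the next in order, at 2040, 1523, 1383 and 1246 CPM. IN2 and IN9 together were 8.96% of neurons and held 49.1% of all neuronal Nxph1 UMIs, from 38.0% at P4 to 65.0% at P8.

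Below IN1 the order blended into a gradient that mixed the classes. EN6 had a mean of 1370 ± 600 CPM (SD over 4 libraries), IN10 had 1013 ± 204, and EN7 had 967 ± 187 over the 2 libraries in which it held at least 20 nuclei. IN6 followed at 725 ± 35.3 CPM, with the narrowest spread among these, 685 to 768. At the low end stood IN7 with 60.9 ± 17.3 CPM, EN8 with 59.96 ± 18.6 and EN9 with 49.3 ± 14.5. Among the 25 neuron subtypes in order of their means, the ranges of neighbours were apart at only 2 places, between IN2 and IN1 and between EN7 and IN6. The order within the rest is not resolved beyond the spread of the libraries.

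**Figure D2:**
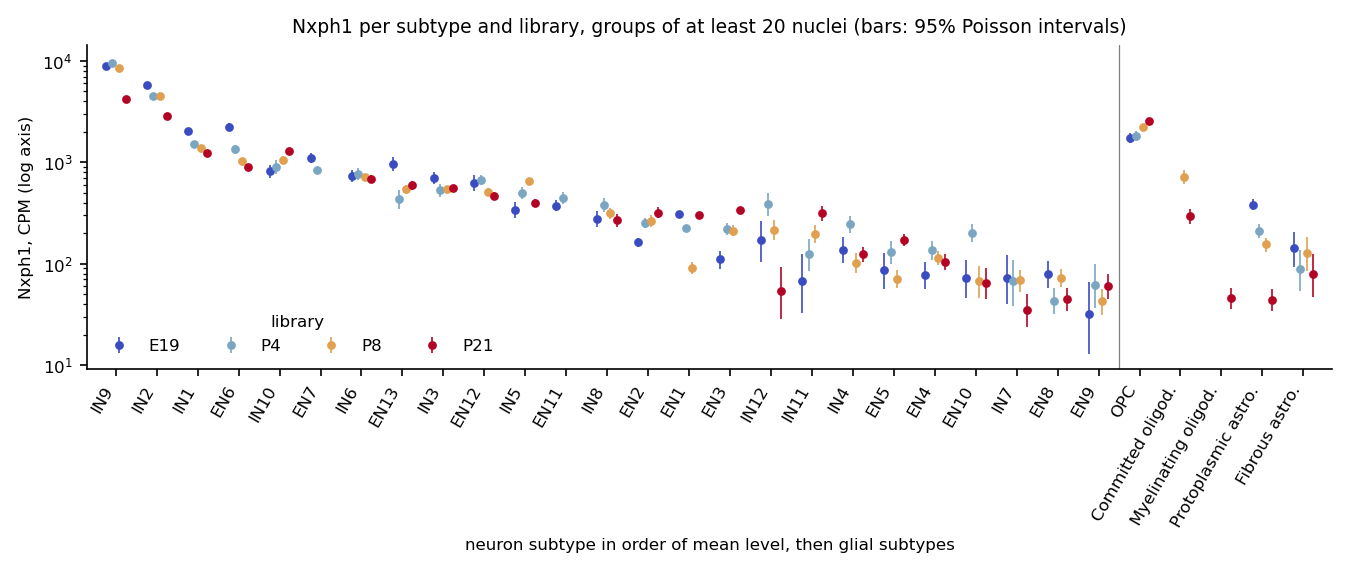
Nxph1 in CPM (vertical axis, log scale) for each neuron subtype in descending order of its mean, and for 5 glial subtypes (right of the line), in groups of at least 20 nuclei. Points are libraries coloured by stage with 95% Poisson intervals; IN9 and IN2 lie above every other neuron subtype, and oligodendrocyte precursors (OPC) lie at 1747 to 2538 CPM.

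Among the subtypes counted nucleus by nucleus, IN9 and IN2 again stood highest. With 2300 UMIs drawn from each nucleus, so that depth was equal, an IN9 nucleus held a median of 19 Nxph1 UMIs at E19, P4 and P8 and 10 at P21. An IN2 nucleus held a median of 12, 9, 10 and 6. At most 1.35% of IN9 nuclei and 3.03% of IN2 nuclei had none at any stage, so the gene was detected in nearly every nucleus of these subtypes. IN1 was mixed: its medians were 2.5, 1, 1 and 2, and 30.1% to 44.2% of its nuclei had no UMI, while at E19 the top 10% held at least 12 UMIs. EN6, below IN1 in mean CPM, had medians of 3, 2, 2 and 1, above those of IN1 except at P21. In IN7 85.7% to 89.1% of nuclei had none, and in EN9 84.4% to 96.7%. In vascular leptomeningeal cells, which were assumed to lack the gene, the share of nuclei with a UMI at that equal depth was 2.78% to 24.3% (22.2% to 42.9% at full depth, with medians of 5610 to 6539 UMIs per nucleus). The shares in IN7 and EN9 lie within that range, so background and low expression cannot be told apart there. That vascular leptomeningeal cells lack the gene was not tested, and they also carried astrocyte genes.

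**Figure D3:**
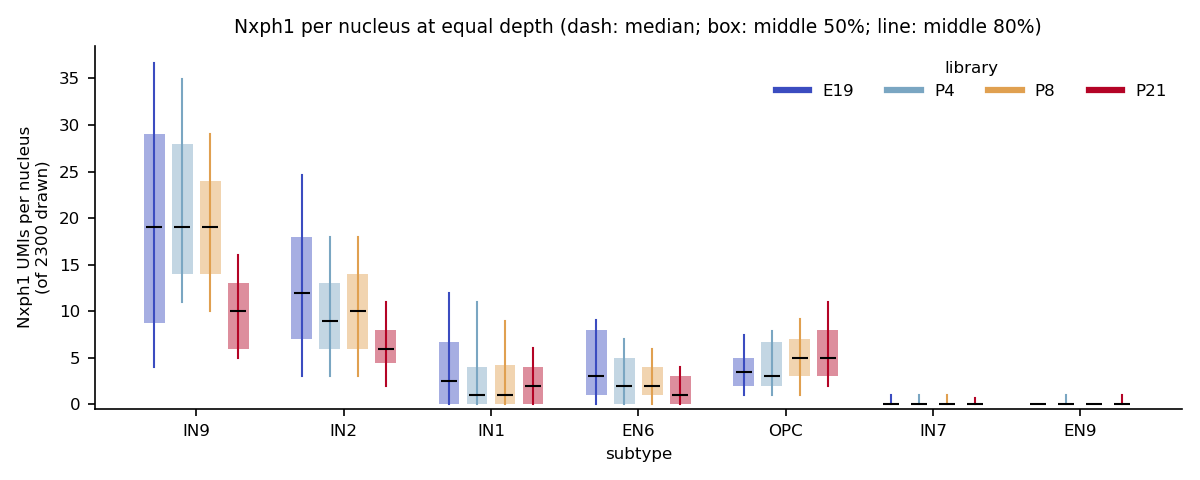
Nxph1 UMIs per nucleus after drawing 2300 UMIs from each (vertical axis, linear) in 7 subtypes, coloured by stage; the dash is the median, the box the middle 50% and the line the middle 80% of nuclei. IN9 nuclei had medians of 19, 19, 19 and 10, and the medians of IN7 and EN9 were 0.

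Between E19 and P21, Nxph1 was lower in inhibitory neurons by a log2 ratio of -1.08 (-1.11 to -1.04). The earliest step, E19 to P4, was -0.36, the step to P8 was -0.016 with an interval that holds 0, and the last step was -0.70. Nxph1 was the 1 member tested there, and its ratio passed a log2 value of 1; 956 of 9298 genes (10.3%) were as much lower and 484 (5.21%) as much higher. The level of a pooled class depends on the subtypes in it. With every subtype given the same weight, the log2 ratio was -0.73, short of that threshold.

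The 3 subtypes that held most of the inhibitory Nxph1 UMIs were each lower at P21. From E19 to P21 the log2 ratio was -1.07 (-1.17 to -0.97) in IN9, -1.03 (-1.08 to -0.98) in IN2 and -0.71 (-0.79 to -0.63) in IN1. The remaining 9 inhibitory subtypes pooled had 389, 420, 458 and 408 CPM, a log2 ratio of 0.067. Their intervals at E19 (365 to 415) and P21 (394 to 423) overlapped, so these levels were not told apart, unlike those of the class. With only IN2 and IN9 left out the ratio was -1.14. The share of IN1, the subtype of highest mean in that remainder, was 29.8%, 27.8%, 4.78% and 9.46% of all inhibitory nuclei. Over all 12 subtypes, 6 were lower at P21 beyond counting error (IN1, IN2, IN3, IN7, IN9 and IN12), IN10 and IN11 were higher, and 4 had an interval that holds 0. Without the nucleus of most UMIs at each stage, 2 of the 6 had an interval that holds 0, IN7 (-0.78, -1.71 to 0.24) and IN12 (-0.99, -2.27 to 0.30). IN10 had 812, 903, 1057 and 1279 CPM, and at P21 its interval (1177 to 1388) overlapped that of IN1 (1190 to 1304).

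The shares of subtypes thus differed between libraries. With the subtype shares of E19 kept and each library's own levels, the class would have had 1280 CPM at P21. With the E19 levels kept and each library's own shares, it would have had 1821 CPM. The measured value was 1058 CPM, so both the levels within subtypes and the mix of subtypes entered the difference.

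**Figure D4:**
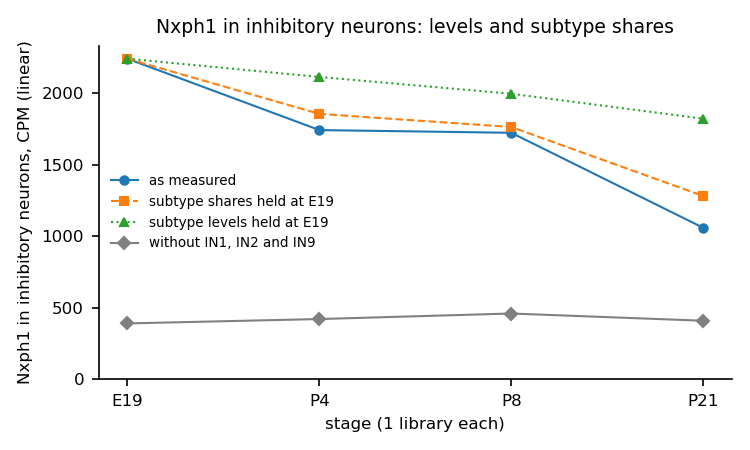
Nxph1 in inhibitory neurons in CPM (vertical axis, linear, from 0) by stage: as measured, with the subtype shares of E19, with the subtype levels of E19, and without IN1, IN2 and IN9. At P21 these values were 1058, 1280, 1821 and 408 CPM.

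Among excitatory neurons the high subtype was EN6. It had 2225, 1340, 1026 and 890 CPM, in each library the highest of the excitatory subtypes with at least 20 nuclei, and its log2 ratio of P21 to E19 was -1.32 (-1.48 to -1.15). Markers of inhibitory neurons did not accompany it: Gad1, Gad2 and Slc32a1 summed to 23.0 to 48.2 CPM in EN6, near the level of the class. EN6 nuclei without any UMI of those 3 genes had 2436, 1494, 1107 and 918 CPM of Nxph1, as high as the whole subtype. For each UMI of the inhibitory markers, EN6 held 27.5 to 56.1 UMIs of Nxph1, while the inhibitory class held 1.55 to 2.36 and IN9 held 5.28 to 9.49.

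In excitatory neurons as a class, the log2 ratio of Nxph1 between the first and last stage was 0.028 (-0.035 to 0.091), an interval that holds 0. With subtypes weighted alike it was -0.49, over the 11 subtypes left without EN7 and EN11. Subtypes lay on both sides of it. EN3 had 110, 220, 212 and 338 CPM and EN2 had 162, 251, 265 and 319 CPM, both higher at P21, whereas EN6 was lower. EN1 had 311, 224, 91.2 and 305 CPM, with the low value in the P8 library. Of the 11 subtypes with enough nuclei at both stages, 3 were higher at P21 beyond counting error (EN2, EN3 and EN5) and 4 lower (EN6, EN8, EN12 and EN13). In EN13 at E19, 1 nucleus held 98 of 153 UMIs, and without it the level was 398 in place of 968 CPM. At P21 EN13 had 593 CPM, or 529 without its top nucleus. Without those nuclei its log2 ratio turned from -0.70 to 0.41 (-0.0062 to 0.84), and that of EN8 went from -0.76 to -0.27 (-0.93 to 0.41), so both calls were lost. EN7 and EN11 were present mainly at E19 and P4 and had too few nuclei later. Without EN6 the class had 267, 345, 169 and 263 CPM of Nxph1. Without EN6 and EN7 it had 244, 230, 170 and 256 CPM. The class value of 367 CPM at P4 thus rested in large part on EN7. Neither Nxph1 nor Nxph4, the members tested in this class, was higher at P21 by a log2 ratio of 1, while 439 of 9214 genes (4.76%) were.

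Outside neurons, Nxph1 was a gene of oligodendrocyte precursors. OPC nuclei had 1747, 1807, 2227 and 2538 CPM, which is at or above the level of IN1 in 3 of 4 libraries. The log2 ratio of P21 to E19 was 0.54 (0.35 to 0.73). At equal depth the medians were 3.5, 3, 5 and 5 UMIs per nucleus, and 3.12% to 9.52% of OPC nuclei had none. OPC held 12.2 to 27.8 Nxph1 UMIs for each UMI of the inhibitory markers, which is above the ratio in the inhibitory class in every library. In IN9, the inhibitory subtype with the highest Nxph1, that ratio was 5.28 to 9.49. At P4 the interval of OPC (8.08 to 19.1) overlapped that of IN9 (7.02 to 10.0).

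Along the oligodendrocyte lineage the level was lower in the more mature groups. Committed oligodendrocytes had 723 CPM at P8 and 294 at P21, and myelinating oligodendrocytes had 45.9 CPM at P21, within the 42.5 to 87.3 CPM of vascular leptomeningeal cells. Dividing cells had 731 CPM at E19, 854 at P4 and 1693 at P8. Those with a UMI of the OPC genes Pdgfra or Cspg4 had 903, 1474 and 2175 CPM, and those without had 590, 52.9 and 75.7 CPM. The P4 and P8 values of the second group rest on 3 and 4 UMIs. Protoplasmic astrocytes had 383, 209, 155 and 44.3 CPM. Their ratio of Nxph1 to inhibitory marker UMIs was 4.21 at E19, above that of the inhibitory class but below that of IN9 (9.47) and IN2 (5.32). At P21 it was 0.729, below that of the class. The part that free RNA of other nuclei played in the astrocyte values was not tested. Microglia at P21 had 369 CPM, but 24 of the 41 UMIs came from 1 nucleus.

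Among neurons, Nxph4 was higher in the excitatory class at E19, P8 and P21, and its level there was highest at E19. Excitatory neurons had 17.6 CPM at E19 (203 UMIs), 3.29 at P4 (49 UMIs), 2.35 at P8 (31 UMIs) and 2.67 at P21 (39 UMIs). Inhibitory neurons had 1.85, 1.88, 0.0902 and 0.177 CPM, from 11, 12, 1 and 2 UMIs. At P4 the interval of the log2 ratio between classes holds 0 (-0.27, -0.54 to 0.041). Dividing cells at E19 had 18.9 CPM from 4 UMIs (5.14 to 48.3), an interval that includes the excitatory value. The E19 excitatory value was above all the other neuronal ones, and the 3 later ones overlapped in their intervals. The log2 ratio of P21 to E19 in excitatory neurons was -1.56 (-1.78 to -1.32), nearly all of it between E19 and P4 (-1.45). Of 9214 genes, 895 (9.71%) were lower by a log2 ratio of at least 1. Of the 2 members tested, Nxph1 and Nxph4, only Nxph4 was among them.

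EN2 held the most of that signal, 44.8% of the excitatory Nxph4 UMIs at E19. It had 42.9 CPM at E19 (91 UMIs in 67 of 287 nuclei), then 7.24, 9.36 and 6.75 CPM. EN11 had 27.6 CPM at E19 and 7.79 at P4, and EN1 had 13.8 CPM at E19 and 3.05 to 3.23 at later stages. EN1 and EN2 together gave 79.3% of the excitatory Nxph4 UMIs at E19 from 59.9% of the nuclei. The difference was also present without EN2, at 11.9, 2.93, 1.93 and 2.45 CPM. With the subtype shares held at E19 over the 11 subtypes present throughout, the level was 17.2 CPM at E19 and 3.44 at P21. By mean over libraries EN11, EN2, EN12 and EN9 came highest, and their ranges overlapped. EN9 had 10.6 CPM at P21 from 9 UMIs, the highest value of that library.

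Nxph3 shared this lean toward young excitatory neurons at a lower level. The class had 6.16, 4.16, 2.12 and 1.16 CPM, from 71, 62, 28 and 17 UMIs. Inhibitory neurons had 1.68, 2.04, 1.26 and 1.33 CPM, and at P8 and P21 the interval of the ratio between classes holds 0. The log2 ratio of inhibitory to excitatory neurons was -0.74 (-1.02 to -0.41) at E19. From E19 to P21 the excitatory log2 ratio was -0.86 (-1.08 to -0.61). Nxph3 was below the 10 CPM minimum for the comparison with all genes.

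At E19 the highest Nxph3 levels were in EN10 and EN11, whereas EN1, the most numerous excitatory subtype there, held the most UMIs (24, at 4.75 CPM). Over the libraries the ranges of neighbouring subtypes overlapped throughout. EN10 had 31.6 CPM at E19 (10 UMIs), 9.97 at P4 (5 UMIs), 4.18 at P8 (2 UMIs) and no UMI in 32 nuclei at P21, where 3 counts would be 5.56 CPM. EN11 had 18.9 CPM at E19 and 13.6 at P4. Together they gave 32.4% of the excitatory Nxph3 UMIs at E19 from 9.94% of the nuclei. Without them the class had 4.56, 3.60, 1.60 and 1.24 CPM. At E19 EN11 was thus high for both Nxph3 and Nxph4, EN10 for Nxph3 and EN2 for Nxph4, where EN2 had 3.30 CPM of Nxph3.

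**Figure D5:**
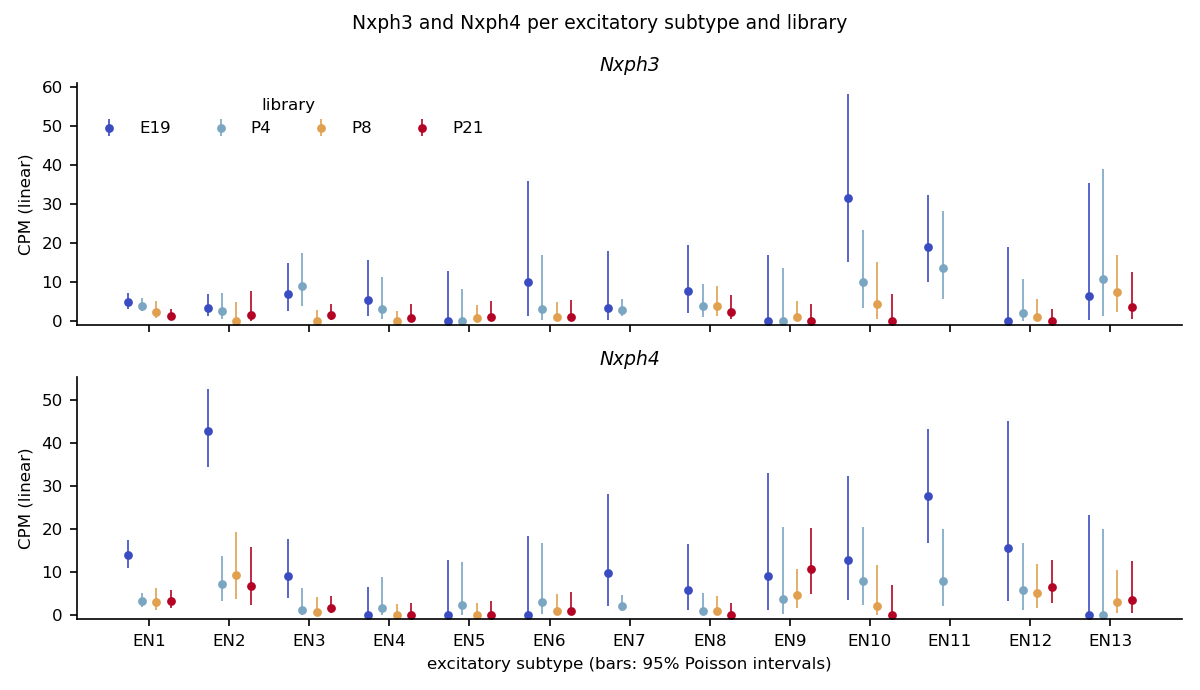
Nxph3 (top) and Nxph4 (bottom) in CPM (vertical axes, linear) in each excitatory subtype and library with at least 20 nuclei, with 95% Poisson intervals. At E19 Nxph3 was at 31.6 CPM in EN10 and 18.9 in EN11, and Nxph4 at 42.9 CPM in EN2 and 27.6 in EN11.

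Nxph2 was rare throughout. Its level in excitatory neurons was 1.04, 3.16, 2.65 and 1.51 CPM at E19, P4, P8 and P21, and in inhibitory neurons 1.51, 3.44, 1.99 and 0.973 CPM. The interval of the ratio between classes holds 0 at all 4 stages. Excitatory neurons had 12 UMIs at E19 and 47 at P4, a ratio of levels of 3.03 (1.58 to 6.28). The highest mean among subtypes was 5.77 ± 6.01 CPM in EN9, with an SD as large as the mean. Of the 147 nuclei with any UMI, 121 had 1, and 1 nucleus had 6.

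Because long genes gather more intronic reads, levels between members were compared per kb of gene. In excitatory neurons at E19, the level per kb was 1.94 CPM per kb for Nxph4 (1.68 to 2.22), 1.30 for Nxph3 (1.02 to 1.64), 1.00 for Nxph1 (0.970 to 1.04) and 0.0129 for Nxph2. Per kb of gene Nxph4 was thus above Nxph1, the reverse of the order in CPM. Per kb of exon the order was that of CPM, with 63.4 CPM per kb for Nxph1, 10.5 for Nxph4 and 2.93 for Nxph3, so the order of these members rests on the length used. At P21, per kb of gene, Nxph1 led at 1.02 CPM per kb, with Nxph4 at 0.294 and Nxph3 at 0.246. In inhibitory neurons Nxph1 led at both ends, with 7.45 CPM per kb of gene at E19 and 3.52 at P21.

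The receptors were measured in the same groups. Nrxn3 had 7558, 7010, 7154 and 7916 CPM in inhibitory neurons and 1413, 1591, 1257 and 1524 CPM in excitatory neurons. In IN2 and IN9 its mean was 8408 ± 605 and 8284 ± 434 CPM. In IN7, where Nxph1 had a mean of 60.9 CPM, Nrxn3 had 5843 ± 541 CPM. The order of the inhibitory subtypes was otherwise not that of Nxph1. The highest Nrxn3 was 9572 ± 599 CPM in IN12, where Nxph1 had a mean of 208 CPM, and the lowest was 5280 ± 443 in IN10, where Nxph1 had 1013. In EN6 it was 497 ± 216 CPM, so the high excitatory subtype for Nxph1 was low for Nrxn3. OPC had 2550 to 3522 CPM of Nrxn3. Nrxn2 went from 500.1 CPM at E19 to 219.8 at P21 in excitatory neurons, and from 516 to 251 CPM in inhibitory neurons. Dag1, which encodes dystroglycan, another ligand of alpha-neurexins, ranged from 84.2 to 100.3 CPM in excitatory neurons and from 85.7 to 98.8 CPM in inhibitory ones. The counts do not separate alpha from beta forms of the neurexins.

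A list of 25 neurexin genes and known partners was counted in the same way. Of the 20 with enough counts to compare classes, 1 (Nrxn3) was higher in inhibitory neurons by a log2 ratio of 1 in all 4 libraries, and none was as much higher in excitatory neurons, beside 0.452% of all genes in each direction. The median log2 ratio was -0.0084 over the list and 0.053 over all 9289 genes. From E19 to P21, 3 of 21 were lower by that much in excitatory neurons (Nrxn2, Cbln2 and Igsf21) and 3 of 20 in inhibitory neurons (Nrxn2, Cbln2 and Fam19a1), and none was as much higher in either class. Over all genes 9.71% and 10.3% were as much lower and 4.76% and 5.21% as much higher, so the counts of lower genes in the list are near the shares over all genes. Cbln2 encodes a secreted cerebellin, Igsf21 an immunoglobulin-domain protein of synapses, and Fam19a1 a secreted neurexin ligand. The list medians were -0.23 and -0.20, beside -0.069 and -0.053 over all genes.

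As measured, the members did not follow one another closely across subtypes. Nxph2, Nxph3 and Nxph4 had few UMIs, with highest subtype means of 5.77, 16.3 and 17.7 CPM. How far counting error lowered their correlations was not tested. Over the 25 neuron subtypes, the Pearson correlation of log2(CPM + 5) was 0.46 between Nxph3 and Nxph4, 0.37 between Nxph2 and Nxph4, and -0.056 to 0.11 between Nxph1 and the other three. The genes most like Nxph1 among 10952 were Phf14 (0.75), a chromatin protein that also lies on chromosome 6, Sema5a (0.74), a semaphorin of axon guidance, and Slc35c2 (0.70). For Nxph4 they were Glis3 (0.78), a zinc-finger transcription factor, Sptbn1 (0.76), a spectrin of the membrane skeleton, and Mapk15 (0.75), a kinase. For Nxph3 they were Neurod2 (0.79), a transcription factor of excitatory neurons, Ap2a2 (0.78), a subunit of the endocytic adaptor, and Grik5 (0.78), a kainate receptor subunit. For Nxph2 they included Prss12 (0.73) and Tbc1d24 (0.72), with Nxph2 itself below the minimum used for the other genes. The subtypes share libraries and depth, so these values are descriptions. Leaving out 1 library at a time or changing the minimum or pseudocount kept 1 or 2 of each set of 3 for Nxph1, Nxph3 and Nxph4. For Nxph2 it kept 0 to 2.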

How the data were processed

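The deposited matrix holds raw UMI counts per gene and nucleus for 4 libraries, and the authors' table gives each nucleus its stage, class, subtype and UMI total. Per the labels' protocols, nuclei were captured with 10x Genomics 3′ v3 chemistry and counted with CellRanger v3.0.2 on mm10 with introns included (a pre-mRNA reference). Totals recomputed from the matrix matched the table in 9724 of 9724 nuclei. Another 10 columns of the table were not used. How nuclei were filtered, doublets treated, libraries integrated and strand set is not given in the sources used here. For stage, the design text abbreviates the embryonic stage differently from the sample label; E19 of the label was used.

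UMI counts were summed per library and class or subtype and divided by the total of that sum (CPM per 1000000 UMIs). Groups of at least 20 nuclei were described. Log2 ratios carry a pseudocount of 5 CPM, which understates the change of low genes, and their intervals combine exact Poisson limits of both levels. Shares of nuclei are given after thinning each nucleus to 2300 UMIs, which left out 0 nuclei, and also at full depth. Fold intervals are exact conditional binomial. No replicate libraries exist, so no test was made, and leaving out a replicate was not possible. Thresholds over all genes used a mean of at least 10 CPM and an absolute log2 ratio of 1.

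The 4 members were named whatever their values, with the 3 genes of highest correlation to each (leaving out sex-linked, haemoglobin, mitochondrial and ribosomal protein genes) and Nrxn2, Nrxn3 and Dag1 of the partner list. Some genes chosen by this rule are not reported here. Members and lists were chosen with earlier results of these data known. The subtypes described one by one, and the partner genes named beyond those 3, were picked after the values had been seen. Gene positions and transcripts are from GENCODE M21, which holds 31011 (99.9%) of the gene identifiers, and coding sequences were aligned with MAFFT 7.526. Ratios and intervals were tested on simulated Poisson counts only. These leave out the uneven spread of UMIs over nuclei, so how the intervals hold under that spread was not tested. Python 3.11.15, numpy 2.4.6, scipy 1.17.1, pandas 2.3.3 and matplotlib 3.10.9 were used.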

Additional observations from a re-analysis of the deposited data

Results flagged for a closer look

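Nxph1 differed in direction between groups from E19 to P21. Its log2 ratio was 0.54 in OPC and -1.08 in inhibitory neurons, each beyond counting error, with 1 library per stage; the difference between the groups was not tested. Without the nucleus of most UMIs at each stage, the OPC value was 0.61.

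Among neuron subtypes the highest and lowest ratios of Nxph1 lay within the inhibitory class, 2.13 in IN11 and -1.57 in IN12, and this difference was not tested either. Both subtypes held 22 to 44 nuclei per library. IN11 had 68.2, 124, 198 and 315 CPM, and without its top nucleus at each stage the ratio was 2.15 (1.14 to 3.32). In IN12 single nuclei held 10 of 20 UMIs at E19, 53 of 59 at P4 and 51 of 82 at P8, and without the top nucleus the ratio was -0.99 (-2.27 to 0.30), an interval that holds 0.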

How the results depend on the processing

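Of 97 recomputed values of the mean ratio between classes and the ratio of P21 to E19 in each class, 63 stayed within the counting interval of the reported value, 33 left it, and 1 took the opposite sign to an interval that excludes 0. Every other change of sign among the 97 was in a ratio whose reported interval holds 0. The 1 was Nxph1 from E19 to P21 in inhibitory neurons without IN1, IN2 and IN9 (0.067), where the intervals of the E19 and P21 levels overlapped. Without IN2 and IN9 alone the ratio was -1.14. With nuclei weighted alike it was -1.18, and with subtypes weighted alike -0.73. It was -1.16 with thinning to 2300 UMIs and -1.04 with neurons classed by their own transmitter UMIs. The mean Nxph1 ratio of inhibitory to excitatory neurons was 2.36 with a pseudocount of 20 CPM, 2.30 with nuclei weighted alike, 2.003 with subtypes weighted alike, 2.26 thinned, 2.36 with median-of-ratios scaling, 2.35 classed by own UMIs, 2.57 without EN7 and 2.54 without the top 1% of nuclei. Nxph1 from E19 to P21 in excitatory neurons, 0.028 as reported, was 0.17, -0.49, 0.20 and 0.10 under nuclei alike, subtypes alike, thinning and own UMIs, 0.11 without EN7 and 0.30 without the top 1% of nuclei. The -0.49 covers 11 subtypes, without EN7 and EN11. For Nxph4, the ratio between classes was -0.30 with 20 CPM, -0.89 thinned and -0.58 classed by own UMIs; the excitatory ratio of P21 to E19 was -0.73 with 20 CPM, -0.89 with subtypes alike, -1.86 thinned and -1.18 without EN2; the inhibitory one was -0.11 with 20 CPM, -0.94 by own UMIs and -0.095 without the top 1%. For Nxph3, a pseudocount of 20 CPM gave -0.11 between classes and -0.31 from E19 to P21 in excitatory neurons. For Nxph2, thinning gave 0.38 in excitatory and subtypes alike 0.15 in inhibitory neurons from E19 to P21. For Nxph1 in EN13, leaving out the top nucleus at each stage gave 0.41 in place of -0.70. The causes were not tested, apart from the larger pseudocount, which by construction shrinks ratios of low genes. The settings without named subtypes other than EN7, or without top nuclei of single subtypes, were chosen after seeing the data. No paired analysis was possible because each stage has 1 library.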

Other observations

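Transcription factors of the developing midbrain were looked at after their values were seen. In IN9 and IN2, Tfap2b had a mean of 654 and 379 CPM over the libraries. It had 177 CPM in the other inhibitory and 137 CPM in the other excitatory subtypes, each pooled, and 18.4 CPM in EN6. Pax7, a factor of the dorsal midbrain, had 348 CPM in IN9, 99.0 in IN2 and 86.3 in the other inhibitory subtypes. Meis2 had 48.7 CPM in IN9, 38.1 in IN2 and 47.9 in EN6, and 417 CPM in the other inhibitory and 469.7 CPM in the other excitatory subtypes. EN6, IN2 and IN9 thus each had a mean of Meis2 below these pools, within which single subtypes were not compared. Pax7 in EN6 had a mean of 0.651 CPM. Gata2, Gata3, Tal1, Tal2, Sox14, Otx2, Lhx1, Lhx5 and Zic1 were also looked at. Of these, the mean of Gata3 was lower in IN2 and IN9 (106 and 101 CPM) than in the other inhibitory subtypes (123 CPM). This did not hold in each library: IN2 had 154 against 151 CPM at E19, and IN9 had 92.2 against 82.0 at P21. The mean of Lhx5 was higher, at 50.9 and 49.9 against 38.9 CPM, but at P21 IN2 had 28.4 against 28.6. Lhx1 had means of 21.7 and 10.9 against 35.0 CPM. Otx2 had 18.5 CPM in IN2, 191 in IN9 and 151 in the other inhibitory subtypes. No intervals are given for these levels.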
